A study of Mus musculus with 6 samples.

Results

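Gene expression was compared between 2 sets of Ba/F3 arrays that were told apart by the array code in the sample title. The 2-array set carried the code EA1566, and the 4-array set carried the codes EA2019, EA2020, EA2021 and EA2022, which together are all 6 arrays of the study. The labels do not say what the code marks, so neither a shared culture, an extraction day nor a scan day could be attached to it. Ba/F3 is a BALB/c mouse cell line that grows in the presence of interleukin-3. In all 6 samples the cells carried a retroviral Tet-on transgene for the fusion protein PAX5-KIDINS220 and were kept in medium with supernatant of WEHI-3, a myelomonocytic line that releases interleukin-3, so no sample lacks the transgene or the supernatant. Each set held cells without and with 500 ng/mL doxycycline, the drug that switches the transgene on, with RNA taken after 24 h. The 2-array set had 1 array in each state and the 4-array set had 2 in each state. Whether the arrays came from separate cultures is not stated, nor whether the transduced cells were a clone or a pool. The p-values below therefore measure how far these arrays scatter, and that scatter may be technical. Array set and any difference in culture, handling or hybridization cannot be told apart.

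Ba/F3 cells depend on interleukin-3, which binds a receptor made of an alpha chain and a shared beta chain, activates JAK2 and STAT5, and drives growth and survival genes. When amino acids run short or the endoplasmic reticulum is stressed, phosphorylation of eIF2alpha raises translation of the transcription factor ATF4, which in turn induces amino acid synthesis and transport, tRNA charging and the pseudokinase Trib3. The granules of eosinophils hold major basic protein and eosinophil peroxidase, and those of neutrophils hold lactoferrin and lipocalin, with calprotectin in the cytosol, so genes for these proteins serve as markers of myeloid lineages.

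The deposited values were linear signals, and every array had the same 2%-trimmed mean of 500, with median signals from 56.5 to 65.9. Arrays of 1 set correlated at 0.974 to 0.980 over all probe sets, and arrays of different sets at 0.951 to 0.957. The 3'-to-5' differences of the control probe sets, a measure of RNA integrity on a log2 scale, averaged 0.23 (2-array set) and 0.28 (4-array) for beta-actin, and 1.71 and 1.54 for the transferrin receptor. For Gapdh they averaged -0.54 and -0.60. The exact permutation test over 6 arrays cannot give a two-sided p below 0.0667, so no such measure could pass (p = 0.2 for beta-actin and the transferrin receptor, 0.133 for Gapdh), and equal RNA integrity cannot be read from it. The hybridization spike-ins, bacterial transcripts added to every sample at a set amount, averaged 11.72 (2-array) and 12.29 (4-array) on the log2 scale, and their 18 probe sets were higher in all 4 arrays of the 4-array set. The spike-ins added before labelling, read by the poly-A control probe sets, were higher by 0.34 and the probe sets for mouse 18S ribosomal RNA by 0.36. Each of these 3 differences gave the smallest p that 6 arrays allow (exact permutation test, two-sided, p = 0.0667, 0.133 after adjustment over the 6 control measures). Centring each array on its hybridization spike-ins lowers every log2 difference by 0.57 and puts the median over all probe sets at -0.52, so a smaller difference in favour of the 4-array set has the opposite sign on that scale. The poly-A controls would give a smaller shift. The part of these shifts in the results below was not tested. For lists that lean towards the 4-array set the median on the hybridization spike-in scale is given as well.

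In the plain comparison the sets differed widely. The difference was fitted with limma on log2(signal + 16) with array set and doxycycline state as terms, and it is given throughout as 4-array set minus 2-array set. A probe set was called when its Benjamini-Hochberg adjusted p was under 0.05. Of 34945 probe sets with 1 gene symbol, 10172 were called (29.1%), 5454 of them higher and 4718 lower in the 4-array set, so that 53.6% of the calls were higher. That share depends on how arrays are put on 1 scale. It was 48.6% after quantile normalization and 42.7% after centring each array on its median. After centring on the spike-ins, 1788 probe sets were higher and 12098 lower in the 4-array set, a share of 12.9%. With each of 18193 genes represented by its brightest probe set, 6004 genes were called (33.0%), 3091 higher in the 4-array set (17.0%) and 2913 lower (16%). At least 2-fold differences on this scale were seen for 1025 genes that were higher and 688 that were lower in the 4-array set. At least 4-fold differences were seen for 171 and 57 genes. The median difference over all genes was 0.04.

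Most called differences had the same side in both doxycycline states. For 9789 of 18193 genes (53.8%) the lone array of the 2-array set lay outside both arrays of the 4-array set, to the same side, without and with doxycycline. Of the 6004 called genes, 6002 did so. The calls come from 1 fit over both states, which favours genes whose states agree. That agreement is therefore no separate support. In a joint fit of the group means over all arrays, 4288 genes were called without doxycycline and 4812 with it. Both states share the residual variance of that fit, so the calls of the 2 states are not separate analyses. These calls rest on the mean-variance trend of limma: counted over probe sets, 6957 and 7860 were called, and without the trend 0 and 983. Of the genes called per state, 3765 were called in both states in the same direction, and 3 were called in opposite directions. Across the 18193 genes the differences in the 2 states correlated at 0.62. They come from different arrays of the same 2 sets, and the correlation runs over genes, so it is a description and no test. The interaction of array set with doxycycline state, which asks whether the difference itself changes with the drug, gave 0 called probe sets in limma, and 16 once dim probe sets were left out. The smallest adjusted interaction p was 0.257, and among the brightest probe sets of the genes 1257 had an unadjusted p under 0.05.

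**Figure D1:**
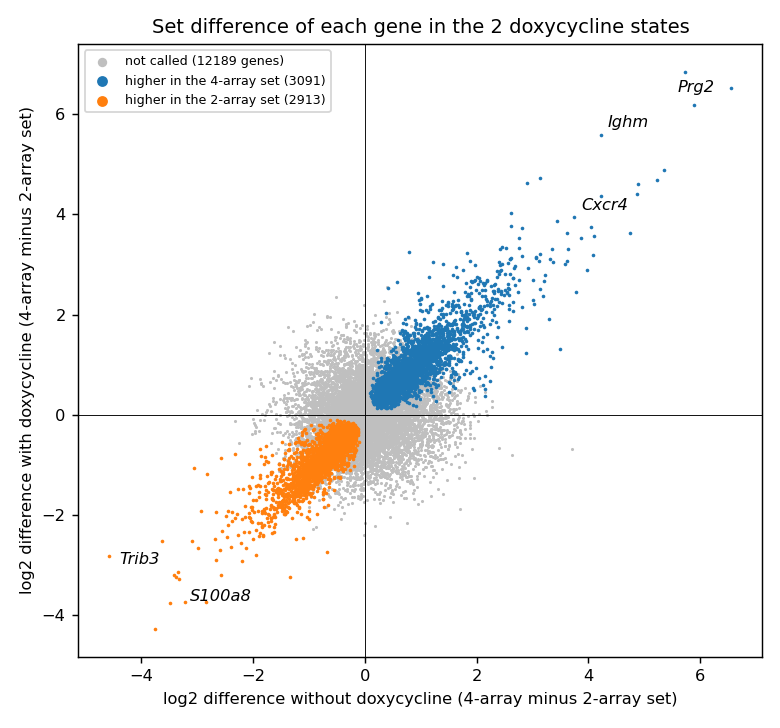
Difference between the array sets (4-array minus 2-array, log2 scale) for each of 18193 genes without doxycycline (horizontal axis) and with doxycycline (vertical axis), coloured by the call over both states. The 3091 genes called higher and the 2913 called lower in the 4-array set lie along the diagonal, and the correlation over all genes is 0.62.

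Signals below are given in a fixed order, the 2-array set without and then with doxycycline, followed by the 4-array set with 2 arrays without and 2 arrays with doxycycline. Intervals are 95% intervals of limma, and p-values are those of limma adjusted over the 34945 probe sets. Fold changes are on the log2(signal + 16) scale and understate the change of dim genes. Counts of called members of a list stand beside 33.0% called over all genes, 17.0% higher and 16% lower. The 15 genes with the largest difference in each direction were picked to have no overlap in either state, so for them its absence adds nothing. Over all genes, 53.8% had the lone array outside both others to the same side in each state. Genes with every array of the 4-array set beyond both arrays of the 2-array set also meet this looser rule. Their share over all genes was not counted and cannot exceed 53.8%. Statements below that the sets of a gene did not overlap are therefore descriptions without a background share.

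Eosinophil granule genes were high in the 4-array set, and Prg2 had the largest difference of any gene on the lineage lists. Prg2, which encodes major basic protein, had signals of 148 and 207 in the smaller set against 15574, 15405, 20881 and 19894 in the larger set. All 4 arrays of the larger set were above both others in each state. The difference was 6.54 (6.40 to 6.67, adjusted p = 3.1e-10), or 92.9-fold, and was 6.56 without and 6.52 with doxycycline. Prg3, which encodes a homologue of major basic protein, read 5.76 and 11.3 against 746, 528, 671 and 622. It was near the lower end of the signal range in the 2-array set only, and differed by 4.74 (adjusted p = 7.9e-07). Epx, the eosinophil peroxidase gene, read 37.1 and 91.9 against 396, 430, 449 and 580, a difference of 2.65 (adjusted p = 1.8e-05). Siglecf, a sialic-acid-binding receptor of mouse eosinophils, read 105 and 206 against 810, 680, 1526 and 1407, which is 6.47-fold (adjusted p = 5.8e-07). In both sets its signals were higher with doxycycline. In a bulk sample, fewer cells of a type and less RNA per cell cannot be told apart.

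The eosinophil markers did not all follow. Of the 12 that were measured, 6 were called higher in the 4-array set and 1 lower, with a median difference of 0.78, beside 0.04 over all genes. The median was 0.21 after centring on the spike-ins. Other defining markers stayed low on all 6 arrays: Il5ra, the receptor chain for interleukin-5, and Csf2ra, that for GM-CSF, were not called, with differences of 0.17 and 0.00. Ccr3, the eotaxin receptor, read 4.11 and 37.1 against 6.23, 4.97, 137 and 81.7, so that its 2 highest signals were those of the 4-array set with doxycycline. Its difference of 0.65 was not called (adjusted p = 0.3). Summed over the 12 markers, the signals came to 21053 to 22342 in the smaller set against 47707 to 55915. The gap between these sums is mostly that of Prg2 and of Csf2rb, a receptor chain that other myeloid cells share and whose signals are given with the interleukin-3 receptor.

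**Figure D2:**
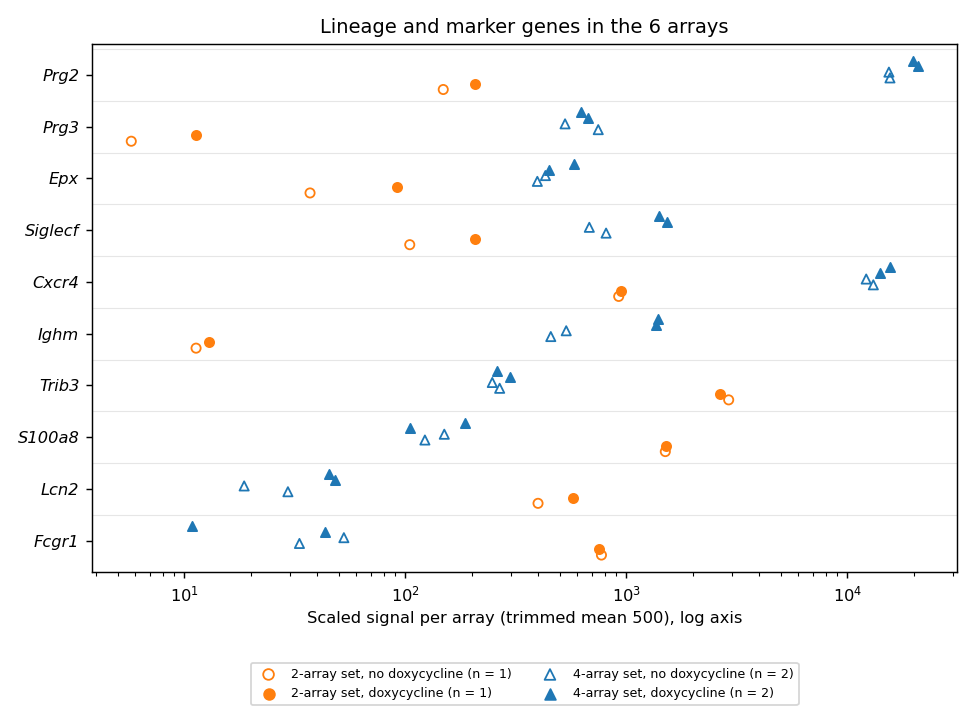
Signal of lineage and marker genes on each of the 6 arrays (log axis), with circles for the 2-array set, triangles for the 4-array set, and filled symbols for doxycycline. Prg2, Prg3, Epx, Siglecf, Cxcr4 and Ighm are higher in the 4-array set, and Trib3, S100a8, Lcn2 and Fcgr1 are lower, with no overlap between the sets. All but Epx and Siglecf are among the 15 genes per direction whose choice required no overlap in either state.

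Some mast cell and basophil genes were higher in the 4-array set and other defining markers stayed dim. Of 19 measured markers, 6 were called higher in the 4-array set and 0 lower, a share of calls close to that of all genes. The median was 0.29, and after centring on the spike-ins it was -0.28, with 3 higher and 2 lower. Cma1, the mast cell chymase gene, read 17.3 and 43.2 against 436, 449, 323 and 289, with no overlap and a difference of 3.11 (adjusted p = 5.4e-05). Ms4a2, the beta chain of the high-affinity IgE receptor, read 171 and 170 against 501, 516, 861 and 882, a 3.65-fold difference (adjusted p = 3.7e-05). Gata2, a transcription factor of mast cells and progenitors, was abundant everywhere, with 8068 and 6557 against 16093, 14693, 13640 and 15933, which is 2.07-fold. By contrast Kit, the stem cell factor receptor that marks mast cells, lay between 4.4 and 68.1 on all 6 arrays, and the mast cell carboxypeptidase Cpa3 between 5.75 and 54.4. Neither was called, with differences of 0.16 and -0.69.

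Neutrophil genes moved in both directions, with calprotectin and lipocalin high in the 2-array set and a set of other granule genes high in the 4-array set. S100a8, a subunit of calprotectin, read 1500 and 1503 in the smaller set against 123, 150, 105 and 186. The 4 lower signals lay far below the 2 higher ones, without overlap. The difference was -3.30 (-3.76 to -2.84, adjusted p = 5.9e-06), a 9.86-fold lower level in the 4-array set. Its partner subunit S100a9 read 1297 and 1422 against 783, 759, 814 and 750, a smaller difference of -0.79 (adjusted p = 6.2e-05). Lcn2, which encodes the iron-siderophore-binding protein lipocalin-2, read 398 and 575 against 29.4, 18.7, 47.9 and 45.1, a difference of -3.31 (adjusted p = 2.6e-05). In the opposite direction, Ngp, neutrophilic granule protein, read 877 and 1025 against 5305, 5060, 5592 and 5651, a difference of 2.49 (adjusted p = 1.2e-07). Mmp9, a gelatinase, and Ltf, lactoferrin, were called higher in the 4-array set too, by 1.18 and 1.12. In all, 3 of 17 measured members were higher, 4 were lower and 10 were not called, and the median was -0.06, with values from -0.06 to 0.23 when each array was left out in turn. The primary granule genes Elane and Mpo read at most 62.5 and 89.7 on any array, and neither was called.

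Monocyte genes also went both ways. Fcgr1, the high-affinity IgG receptor, read 771 and 754 against 33.2, 52.7, 43.5 and 10.8, the largest decrease among the 15 genes named for being lower in the 4-array set (-4.01, adjusted p = 4.5e-05). The chemokine receptor Ccr2 read 255 and 246 against 2799, 3045, 4030 and 3578, 12.6-fold higher in the 4-array set (adjusted p = 1.7e-07). Csf1r, the M-CSF receptor, read 128 and 114 against 406, 372, 290 and 327, a difference of 1.40 (adjusted p = 0.00011). Of 16 measured monocyte markers, 6 were called higher and 2 lower, with a median of 0.21 that turned to -0.36 after centring on the spike-ins, where 3 were higher and 7 lower. Without the doxycycline array of the 2-array set 5 of the 8 calls were left in number. Because WEHI-3 supernatant was in the medium, 9 measured genes of myelomonocytic cells were also read as a list. Csf1r, Lyz2, Cd14 and Itgam are on the monocyte list too, and Mpo is on the neutrophil list, so this list is no separate support. Among its 9 genes 4 were called higher in the 4-array set and 1 lower, with a median of 0.92, or 0.35 after centring on the spike-ins. The 5 calls were 2 without the doxycycline array of the 2-array set, and 3 without its other array, without either 4-array array lacking doxycycline or without replicate 2 of the 4-array set with doxycycline. Their summed signals were 2529 and 3181 against 10854 to 13448, and most of the sum was Ms4a3, a granulocyte and monocyte progenitor gene, with 1948 and 2683 against 11658, 9905, 12682 and 12505. Il3, which WEHI-3 cells express, read between 1.62 and 26 on all 6 arrays.

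Among lymphoid genes, a few members stood apart and most did not. Ighm, the immunoglobulin mu heavy chain, read 11.3 and 12.9 against 455, 534, 1360 and 1385, a difference of 4.90 (adjusted p = 3.6e-06), and was higher with doxycycline within the 4-array set. Only 2 of its 11 probe sets were called, and with probe sets of shared sequence left out its value was -0.21, so the Ighm difference rests on those 2. In the B lineage list 6 of 25 measured members were called higher and 1 lower, which is below the share of calls over all genes (median 0.39, and -0.18 after centring on the spike-ins, with 2 higher and 3 lower). Without the doxycycline array of the 2-array set 2 members were called. The pre-B receptor component Igll1 read between 10.1 and 118, and Cd79a between 8.57 and 45.6, with overlapping sets. Of 17 T and NK cell genes, 2 were called, both higher in the 4-array set. They were Gzmb, the granzyme B gene, at 3.32 (adjusted p = 1.9e-05), and Cd3g, a T cell receptor subunit, which read 36 and 6.68 against 316, 382, 241 and 332, a difference of 3.26. The other CD3 genes on the list, Cd3d and Cd3e, were not called, at -0.62 and -0.32.

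On the scale of the deposited signals, erythroid and stem cell genes shifted without a common direction. Of 13 erythroid genes 4 were higher and 4 lower, but after centring on the spike-ins 1 was higher and 6 lower (median -0.58). Klf1, an erythroid transcription factor, read 1574 and 2423 against 3444, 3401, 3543 and 4108 (0.88, adjusted p = 0.00025), while Hemgn, a nuclear protein of erythroid progenitors, read 3326 and 2906 against 1750, 1500, 1338 and 1238 (-1.10, adjusted p = 1.6e-05). Hba-x, the embryonic zeta globin, read 9.1 and 20.9 against 584, 735, 419 and 465, a difference of 4.19 (adjusted p = 6.3e-06), whereas the adult alpha globin Hba-a1 read at most 19.2 on any array. Of 17 stem and progenitor genes 2 were higher and 4 lower, and 3 were called without the doxycycline array of the 2-array set. The share of stem and progenitor genes called over all 6 arrays, 35.3%, was close to the 33.0% of all genes. After centring on the spike-ins 1 stem and progenitor gene was higher and 7 were lower (median -0.84). Runx1 and Erg, transcription factors of blood progenitors, went in opposite directions. Runx1 read 622 and 440 against 1987, 1789, 1848 and 2206 (1.87, adjusted p = 1.2e-05). Erg read 776 and 573 against 186, 175, 118 and 118 (-2.07, adjusted p = 9.6e-06). Mecom and Tal1, which also encode progenitor transcription factors, differed by 0.00 and -0.01 at signals of 4437 or more. Of 10 plasma cell and 12 fibroblast and epithelial genes 0 were higher, and 1 in each list was lower. The plasma cell call was lost when any of 4 arrays was left out, which were the array of the 2-array set without doxycycline, both such arrays of the 4-array set and its replicate 2 with doxycycline. Without that last array 2 of the fibroblast and epithelial genes were called.

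Genes of the amino acid response were high in the 2-array set. Trib3, a pseudokinase that ATF4 induces and that feeds back on it, read 2903 and 2658 in the smaller set against 267, 247, 298 and 260. The sets were separated by a wide gap in each state. The difference was -3.30 (-3.53 to -3.07, adjusted p = 2e-07), 9.86-fold lower in the 4-array set, and was -3.42 without and -3.18 with doxycycline. Atf4 itself read 13353 and 13675 against 4302, 3970, 3886 and 3876, a difference of -1.75 (adjusted p = 5.7e-07). Asns, asparagine synthetase, read 9905 and 8787 against 2912, 2360, 2476 and 2168 (-1.91, adjusted p = 2e-06). All 3 genes were lower on every array of the 4-array set.

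The promoters of Trib3, Asns and the alanyl-tRNA synthetase gene Aars are shown because they hold the composite site that ATF4 and C/EBP factors bind, searched as TGATGNAA on both strands. The sequences come from RefSeq (GRCm38.p6), run 5' to 3' along the gene's strand from 250 bases before to 50 bases after the start site, and have the matches in capitals. The regions are chr2:152344011-152344310 on the minus strand for Trib3, chr6:7693160-7693459 on the minus strand for Asns and chr8:111033592-111033891 on the plus strand for Aars.
Trib3: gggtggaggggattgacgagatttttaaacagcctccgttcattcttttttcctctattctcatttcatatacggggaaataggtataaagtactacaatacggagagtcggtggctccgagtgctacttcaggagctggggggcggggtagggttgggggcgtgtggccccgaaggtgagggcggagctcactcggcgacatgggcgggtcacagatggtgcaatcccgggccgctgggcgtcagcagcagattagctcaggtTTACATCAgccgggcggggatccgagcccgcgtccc
Asns: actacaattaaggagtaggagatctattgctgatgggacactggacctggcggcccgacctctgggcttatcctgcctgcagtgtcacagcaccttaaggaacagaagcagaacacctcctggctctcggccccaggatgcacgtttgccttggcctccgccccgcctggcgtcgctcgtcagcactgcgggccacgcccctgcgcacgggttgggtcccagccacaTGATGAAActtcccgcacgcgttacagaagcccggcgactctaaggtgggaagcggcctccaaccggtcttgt
Aars: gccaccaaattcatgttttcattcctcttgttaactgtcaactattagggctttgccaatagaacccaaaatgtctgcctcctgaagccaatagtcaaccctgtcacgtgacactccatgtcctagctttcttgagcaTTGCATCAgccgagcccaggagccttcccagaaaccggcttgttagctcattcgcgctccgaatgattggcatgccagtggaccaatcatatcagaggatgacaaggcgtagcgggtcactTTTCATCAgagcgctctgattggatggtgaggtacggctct
Of the ATF4 list, 28 genes had a listed promoter and 9 of these held the motif (32.1%), as did 5 of 13 tRNA synthetase genes (38.5%). The motif occurred in 3.97% of all 32851 promoters. Here and below a gene counts when any of its promoters matches, while the share over all promoters counts each promoter singly. The 2 kinds of share are therefore not strictly alike. A match describes the letters of a promoter and is neither a site of binding nor a cause.

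Across the list of 32 ATF4 and amino acid response genes, 19 were called lower in the 4-array set, 1 higher and 12 were not called, and the median difference was -0.83. Serine and one-carbon enzymes were among the lower genes. Mthfd2, the mitochondrial folate enzyme, read 8263 and 7846 against 1712, 1425, 1353 and 1138, a difference of -2.52 (adjusted p = 8e-07). Gpt2, an alanine aminotransferase of mitochondria, read 3280 and 2550 against 642, 821, 564 and 658, a difference of -2.09. Cth, which makes cysteine from cystathionine, read 2057 and 1682 against 498, 464, 372 and 411, a difference of -2.06. Nupr1, a stress-induced chromatin protein, was close behind Trib3, with 991 and 956 against 129, 51, 79.4 and 114 (-3.24, adjusted p = 4.9e-05). The exception was Psph, the last enzyme of serine synthesis, which was 1.77-fold higher in the 4-array set (adjusted p = 0.0032). Some ATF4 targets did not pass the test. Ddit3, which encodes CHOP, read 385 and 440 against 435, 447, 552 and 525, a difference of 0.23 (0.02 to 0.45). Chac1, which degrades glutathione, read between 35 and 64.3 on all 6 arrays, and the amino acid transporter gene Slc38a2 differed by -0.09 (-0.24 to 0.07).

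Cytosolic aminoacyl-tRNA synthetases, which charge tRNAs with amino acids, followed the same direction. Of 20 measured, 17 were lower in the 4-array set and 0 higher, with a median of -1.07. Aars read 5642 and 5561 against 1775, 1371, 1468 and 1469, the largest difference of the list at -1.88 (adjusted p = 2.6e-06). The smallest called differences were those of Sars and Kars, at -0.67 and -0.63. The 3 that were not called were Qars, Farsa and the mitochondrial enzyme gene Fars2, with differences from -0.14 to 0.10. The ATF4 and tRNA synthetase medians were negative under each scaling tried, between -1.40 and -0.83 and between -1.64 and -1.04.

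Other stress programmes were mixed on the scale of the deposited signals. Of 25 genes of endoplasmic reticulum chaperones and the unfolded protein response, 11 were lower and 7 higher in the 4-array set (median -0.17). After median centring 13 of them were lower and 5 higher, and after centring on the spike-ins 18 and 2 (median -0.74). The chaperone Hspa5, or BiP, read 11473 and 12711 against 10162, 8764, 9235 and 10287, a difference of -0.33 (adjusted p = 0.017). The stress sensor Ern1, or IRE1, went the other way, from 1135 and 687 to 1918, 1779, 2252 and 2207 (1.19, adjusted p = 0.00092). Cytosolic and mitochondrial chaperones were more often lower, 10 of 18 against 2 higher (median -0.35). Hspd1, the mitochondrial chaperonin, read 20068 and 20528 against 10224, 9240, 7926 and 7819, a difference of -1.21 (adjusted p = 1.7e-05), while the stress-inducible Hspa1a and Hspa1b were not called, at 0.18 and -0.01. Of 20 genes of the NRF2 and metal response, 8 were higher and 8 lower, but 2 were higher and 8 lower after median centring, and 2 and 14 after centring on the spike-ins (median 0.18, and -0.39 on that scale). Without either array of the 2-array set 8 members were called. The antioxidant enzyme gene Cat, catalase, was 2.29-fold higher (adjusted p = 3.5e-05) and Me1, malic enzyme, 2.23-fold lower in the 4-array set (adjusted p = 2.8e-05).

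Targets of p53 leaned towards the 4-array set, with 10 of 22 higher and 5 lower (median 0.25). After centring on the spike-ins 6 were higher and 9 lower (median -0.32). Trp53inp1, a protein of autophagy and cell death, read 954 and 656 against 5132, 5039, 5126 and 5960, a difference of 2.72 (adjusted p = 1.9e-06). Zmat3, an RNA-binding protein, read 776 and 666 against 2683, 2694, 2415 and 2310, a difference of 1.79. The death receptor gene Fas read 49.6 and 62.5 against 350, 293, 431 and 326, a difference of 2.34. The cell cycle inhibitor Cdkn1a, a p53 target too, did not follow, with 3955 and 4953 against 3556, 3771, 3300 and 3509, a difference of -0.32 (adjusted p = 0.033). Sesn2, which is also an ATF4 target, was 3.51-fold lower in the 4-array set (adjusted p = 3e-05).

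Glycolysis and hypoxia genes were lower for 12 of 26 and higher for 6 (median -0.33), and 11 of the 26 were called without the array of the 2-array set that lacked doxycycline. Ldha, lactate dehydrogenase, read 20498 and 20420 against 14491, 14495, 13983 and 16848, a difference of -0.46 (adjusted p = 0.0045). Ndrg1, a hypoxia-induced gene, read 335 and 325 against 1187, 1395, 1548 and 1794, 4.28-fold higher (adjusted p = 3.9e-06). Hexokinase 2, Hk2, was 2.01-fold higher in the 4-array set. Of 23 interferon and antigen presentation genes, 9 were higher and 2 lower (median 0.13, and -0.44 after centring on the spike-ins, with 5 higher and 6 lower). B2m, the light chain of MHC class I, read 11487 and 11333 against 20439, 20995, 22297 and 21450, a difference of 0.90 (adjusted p = 2.6e-05). The interferon-induced genes Ifit1 and Rsad2 were not called, at -0.43 and -0.23, and Usp18, which restrains interferon signalling, was 3.37-fold lower (adjusted p = 0.00013).

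Growth genes, among them those of ribosome and nucleotide production, were lower in the 4-array set. Of 31 genes of ribosome biogenesis, 27 were lower and 0 higher, with a median of -0.70. Odc1, which makes polyamines and is a known MYC target, read 9201 and 9675 against 3428, 3402, 2623 and 2506, and no array of the 4-array set came near the others (-1.67, adjusted p = 5.7e-06). Nop56, a core protein of box C/D snoRNPs, read 7762 and 7689 against 4096, 3864, 3017 and 3132, a difference of -1.14 (adjusted p = 1.7e-05). Nucleotide synthesis was lower for 19 of 24 and higher for 1 (median -0.90). Umps, which completes UMP synthesis, read 2586 and 2827 against 853, 811, 656 and 760, a difference of -1.80 (adjusted p = 3.6e-06). The exception was Ctps2, a CTP synthase, at 0.77, while its paralogue Ctps was lower by 1.59 in log2 terms. The E-box CACGTG occurred in promoters of 5 of 25 ribosome biogenesis genes (20.0%) and 4 of 22 nucleotide synthesis genes (18.2%), beside 7.15% of all promoters.

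Myc itself did not pass the test. It read 5005 and 4192 against 5766, 5366, 4448 and 3878, with overlapping sets and a difference of 0.07 (-0.11 to 0.25, adjusted p = 0.61). Genes that encode its partners and antagonists did differ. Of 12 genes of the MYC and MAX network 8 were higher in the 4-array set and 0 lower (median 0.54, and -0.03 after centring on the spike-ins, with 3 higher and 3 lower). Mxd4, a MAX-binding repressor, read 290 and 333 against 1764, 1647, 1794 and 1848, a difference of 2.44 (adjusted p = 1.8e-07). Mxi1, another such repressor, read 1362 and 1404 against 2795, 2980, 2981 and 2900, a difference of 1.07 (adjusted p = 4.4e-06). Both were above the 2-array set on all 4 arrays of the other set.

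Mitochondrial ribosomal proteins were lower for 22 of 25 and higher for 1 (median -0.81). Mrpl12 read 7714 and 7858 against 3183, 3075, 2882 and 2782, the largest difference of the list (-1.38, adjusted p = 1.8e-06), and Mrpl24 was the exception at 0.36, which is below the spike-in shift. Oxidative phosphorylation was lower for 18 of 27 and higher for 1, with a smaller median of -0.32. Cyc1, cytochrome c1 of complex III, read 8101 and 8797 against 3147, 3021, 2754 and 2876 (-1.51, adjusted p = 1.9e-06). Counts of cytosolic ribosomal proteins depended on the scaling. Of 22 measured, 6 were higher and 0 lower (median 0.18), with 27.3% called beside 33.0% of all genes. After quantile normalization 3 were higher and 1 lower (median 0.01), after median centring 2 and 0, and after centring on the spike-ins 1 and 18 (median -0.39). The 6 calls were 2 without either array of the 2-array set and 3 without either doxycycline array of the 4-array set. Cholesterol and fatty acid synthesis was lower for 12 of 25 and higher for 3 (median -0.24).

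Cell cycle genes were lower in the 4-array set almost throughout. Of 33 DNA replication genes 30 were lower and 0 higher, with a median of -1.15. Rrm2, the small subunit of ribonucleotide reductase, read 10645 and 9884 against 3075, 2869, 2156 and 2072. All 4 signals of the larger set were far below the others, and those with doxycycline were the lowest. The difference was -2.03 (-2.23 to -1.82, adjusted p = 1.2e-06). Tk1, thymidine kinase, read 5053 and 5290 against 1775, 1490, 1136 and 1086 (-1.93, adjusted p = 9.6e-06). Mcm3, a subunit of the replicative helicase, read 8902 and 8522 against 4515, 4249, 3568 and 3434 (-1.15, adjusted p = 8.5e-06). Tyms, Mcm6 and Gins3 were the 3 genes of the list that were not called, with differences of -0.87, -0.23 and -0.15. The Mcm3 promoter is shown because it holds both forms of the E2F site searched, TTTGGCGC and TTTCCCGC on both strands, in its RefSeq window chr1:20820263-20820562 on the minus strand (GRCm38.p6), with the matches in capitals.
Mcm3: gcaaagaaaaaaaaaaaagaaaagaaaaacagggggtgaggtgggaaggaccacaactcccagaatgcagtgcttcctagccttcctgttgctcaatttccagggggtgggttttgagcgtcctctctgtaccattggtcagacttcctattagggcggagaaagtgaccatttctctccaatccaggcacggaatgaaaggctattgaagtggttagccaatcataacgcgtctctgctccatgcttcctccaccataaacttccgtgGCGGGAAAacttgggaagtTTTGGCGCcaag
TTTGGCGC occurred in promoters of 5 of 28 replication genes (17.9%) and in 0.514% of all promoters. TTTCCCGC occurred in those of 6 of the 28 genes (21.4%) and in 1.07% of all promoters.

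Mitosis genes were lower for 26 of 29 and higher for 0 (median -0.82). Tpx2, a spindle assembly factor, read 4227 and 4463 against 1475, 1512, 1134 and 1208 (-1.70, adjusted p = 3.8e-06), and Aurkb, a mitotic kinase, 3838 and 3412 against 1690, 1566, 1216 and 1171 (-1.37). Not all regulators of the G1 phase moved this way. Of 18, 8 were lower and 4 higher, and 7 were called without the doxycycline array of the 2-array set. Cdk4, the kinase of D-type cyclins, read 7476 and 7448 against 3860, 3470, 3066 and 3120 (-1.15, adjusted p = 9.4e-06). Cdkn1b, the inhibitor p27, read 819 and 781 against 1874, 2359, 2228 and 2481 (1.46, adjusted p = 1.3e-05), and Rbl2, the pocket protein p130 of resting cells, 590 and 650 against 1460, 1666, 1678 and 1793 (1.39, adjusted p = 3.9e-06). Both were higher on every array of the 4-array set.

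**Figure D3:**
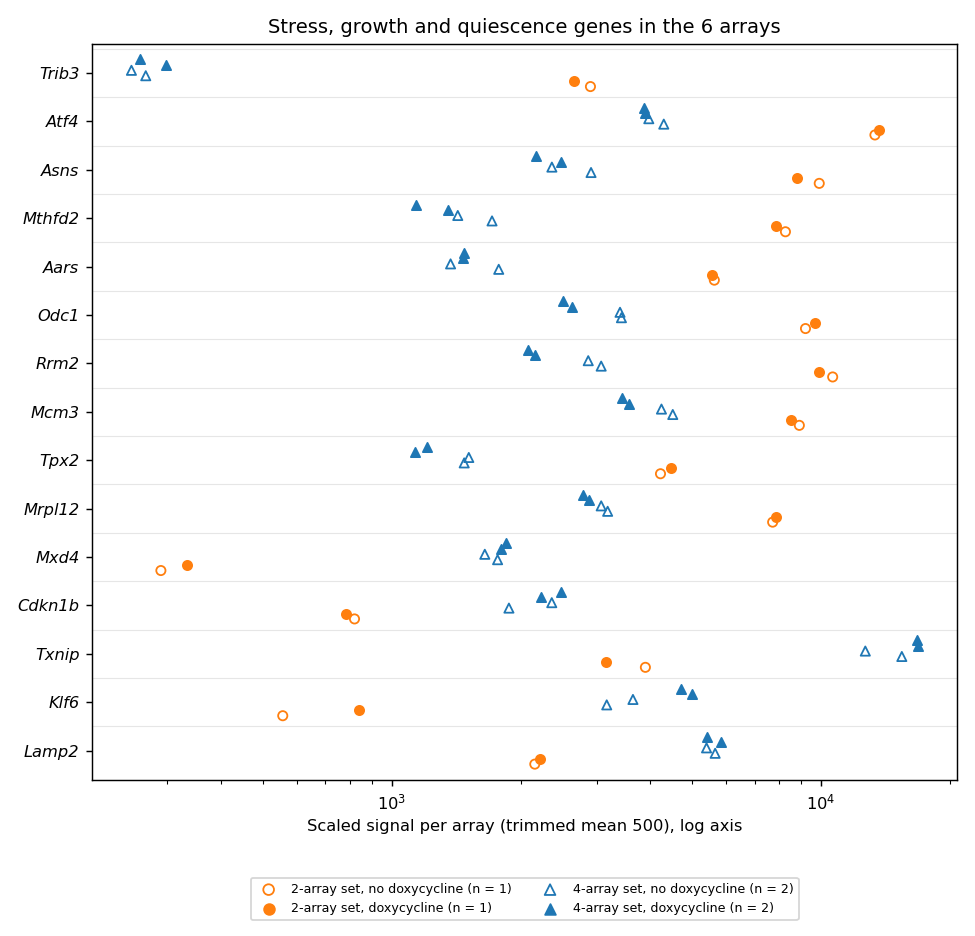
Signal of stress, growth and quiescence genes on each of the 6 arrays (log axis), with circles for the 2-array set, triangles for the 4-array set, and filled symbols for doxycycline. Trib3 to Mrpl12 are lower in the 4-array set, for example by 2.03 log2 units for Rrm2, and Mxd4 to Lamp2 are higher, for example by 2.44 for Mxd4.

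Genes of quiescence and, on the scale of the deposited signals, of the lysosome were higher in the 4-array set. Of 18 FOXO targets and quiescence genes, 12 were higher and 0 lower, with a median of 1.04. This was the highest list median of the fit over both states, but with doxycycline the eosinophil list was higher (1.23 beside 1.01). Klf6, a zinc finger transcription factor, read 557 and 841 against 3168, 3646, 5015 and 4711 (2.54, adjusted p = 1.8e-07). Txnip, which binds thioredoxin and limits glucose uptake, read 3898 and 3150 against 15426, 12682, 16835 and 16730 (2.12, adjusted p = 5.8e-06). Pik3ip1, an inhibitor of PI3 kinase, read 123 and 69.4 against 601, 582, 510 and 485 (2.36, adjusted p = 5.7e-06), and Foxo3, a transcription factor of the family itself, 1100 and 1250 against 3171, 3216, 2952 and 2706 (1.35). In each of these genes the sets were apart in both states. Klf2 and Irs2, further FOXO targets, were not called, at -0.20 and -0.18. Of 23 lysosome and autophagy genes, 16 were higher and 0 lower (median 0.75). Lamp2, a protein of the lysosomal membrane, read 2154 and 2215 against 5667, 5411, 5841 and 5415 (1.35, adjusted p = 1.7e-06), and Ctsd, cathepsin D, was 2.37-fold higher. After centring on the spike-ins 11 quiescence genes were higher and 1 lower (median 0.47), while 7 lysosome genes were higher and 6 lower (median 0.18).

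**Figure D4:**
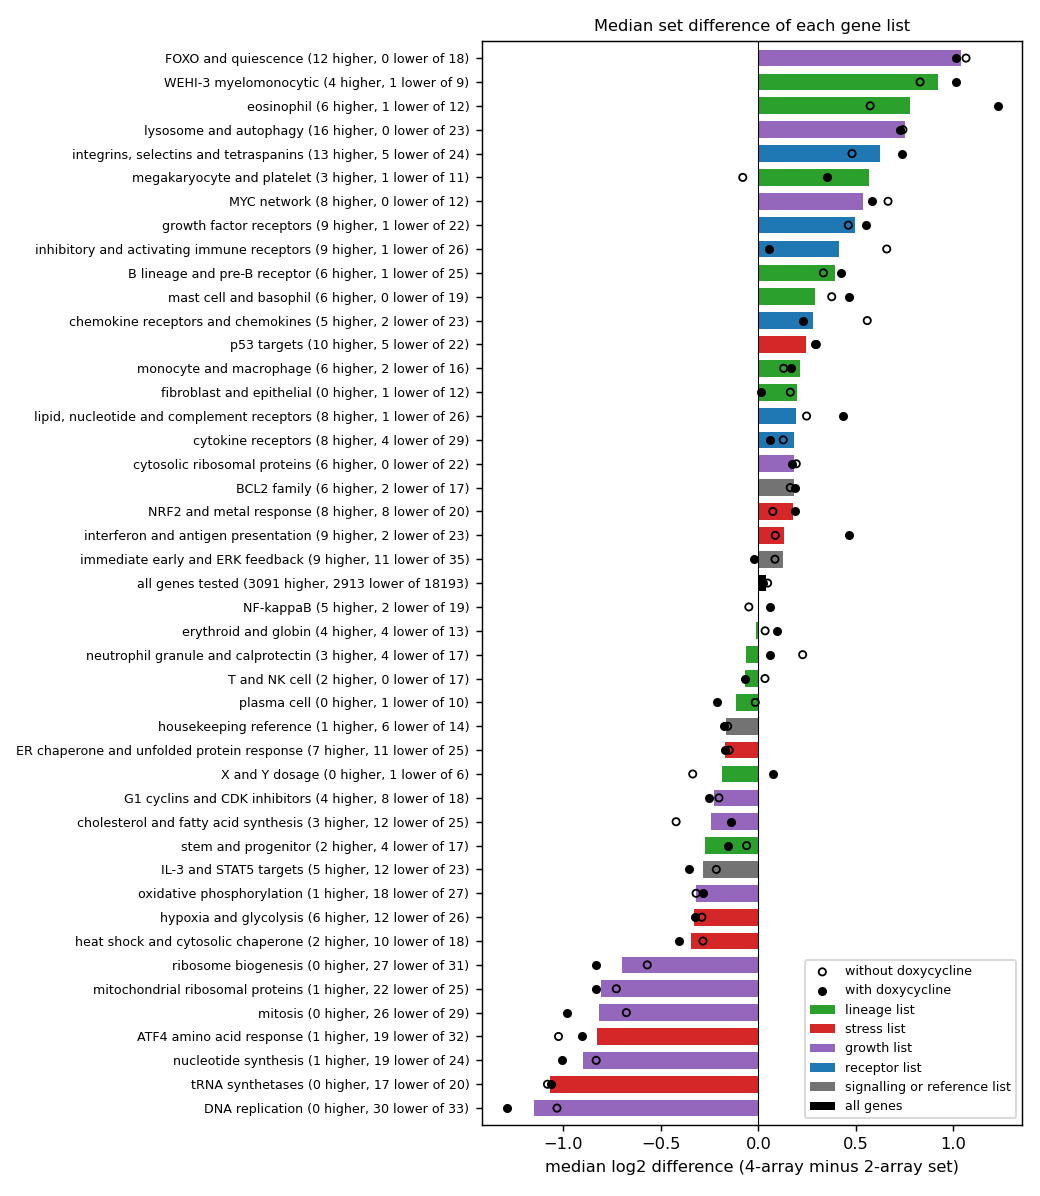
Median log2 difference (4-array minus 2-array) of each gene list as a bar, with the medians without (open circle) and with doxycycline (filled circle) and the numbers of genes called higher and lower. The medians run from -1.15 for DNA replication to 1.04 for FOXO and quiescence, beside 0.04 for all genes.

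The interleukin-3 receptor chains were higher in the 4-array set, while genes downstream of it went in both directions. Il3ra, the alpha chain, read 296 and 317 against 827, 719, 898 and 821 (1.36, adjusted p = 1.2e-05). Csf2rb, the shared beta chain, read 8398 and 9119 against 20153, 20490, 21095 and 22447 (1.26, adjusted p = 4e-06), and Csf2rb2, the beta chain that serves interleukin-3 alone in mice, 4906 and 5131 against 16571, 16421, 17732 and 17777 (1.77, adjusted p = 4.4e-07). These near-identical genes share sequence, so their probe sets may read each other's transcripts. Jak2, the kinase bound to the receptor, read 1140 and 1105 against 2032, 2137, 3453 and 3500, higher by 1.25 and highest with doxycycline in the 4-array set.

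Several STAT5 targets were lower in the 4-array set. Cish, which inhibits cytokine receptors as a feedback of STAT5, read 3583 and 3098 against 581, 514, 606 and 493, a 5.95-fold difference with no overlap (-2.57, -2.81 to -2.34, adjusted p = 7.1e-07). Pim2, a survival kinase, read 1722 and 2249 against 238, 316, 228 and 232 (-2.89, adjusted p = 3.5e-06). Osm, the cytokine oncostatin M, read 1240 and 1338 against 470, 437, 454 and 473 (-1.46, adjusted p = 4.3e-06). Of the 23 genes on this list 12 were lower and 5 higher, with a median of -0.29. Gzmb was higher by 3.32, Jak2 by 1.25, Stat5b by 0.86 and Mcl1 by 0.28, of which the last is below the spike-in shift, and Id2 was the other higher gene. Other STAT5 targets did not pass the test. Pim1 read 10258 and 10172 against 11475, 12351, 10110 and 10637, a difference of 0.12 (-0.05 to 0.30), and Socs2 differed by -0.03 (-0.20 to 0.14). Bcl2l1, which encodes BCL-XL, read 1067 and 1054 against 532, 791, 550 and 521 (-0.83, adjusted p = 0.0023), a call that was lost without the doxycycline array of the 2-array set. The Cish promoter is shown because it has 2 adjacent matches to TTCNNNGAA, the palindrome that STAT5 dimers bind, in its RefSeq window chr9:107296409-107296708 on the plus strand (GRCm38.p6). The matches are in capitals and do not overlap.
Cish: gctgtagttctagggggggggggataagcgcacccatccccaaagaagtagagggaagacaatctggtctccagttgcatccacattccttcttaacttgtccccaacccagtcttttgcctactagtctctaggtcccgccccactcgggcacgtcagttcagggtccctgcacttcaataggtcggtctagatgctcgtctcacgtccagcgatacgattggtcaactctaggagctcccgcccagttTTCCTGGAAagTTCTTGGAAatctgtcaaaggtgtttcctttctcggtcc
This motif was found in promoters of 3 of 17 genes of the list (17.6%) and in 8.30% of all promoters.

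Cytokine receptors as a list, with the 3 interleukin-3 receptor chains included, followed no common direction. Of 29, 8 were higher and 4 lower (median 0.19, and -0.38 after centring on the spike-ins, with 4 higher and 8 lower). Ifngr1, a chain of the interferon-gamma receptor, read 494 and 424 against 3285, 3567, 5166 and 4902, 8.80-fold higher in the 4-array set (3.14, adjusted p = 1.6e-06). Il2ra, the interleukin-2 receptor alpha chain and a STAT5 target, read 2121 and 574 against 138, 178, 75.4 and 98.9 (-3.08, adjusted p = 2.5e-05). Its 2-array signals differed between the doxycycline states by more than the spread within the other set.

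Chemokine receptors included the marker gene Cxcr4, the receptor for CXCL12, which retains blood cells in the bone marrow. It read 923 and 946 in the smaller set against 13098, 12161, 14014 and 15520. Every array of the 4-array set was above 12000, and none of the other set reached 1000. The difference was 3.84 (3.67 to 4.02, adjusted p = 3.3e-08), 14.4-fold, and was 3.75 without and 3.94 with doxycycline. Ccr1, a receptor for inflammatory CC chemokines, read 328 and 197 against 1694, 1665, 1170 and 1160 (2.39, adjusted p = 3e-07). Cxcr2, which guides neutrophils, went the other way, from 393 and 597 to 95.5, 34.4, 144 and 147 (-2.19, adjusted p = 0.00066). Of 23 chemokine genes 5 were higher and 2 lower, a share of calls (30.4%) close to that of all genes (33.0%). Their median of 0.28 was -0.29 after centring on the spike-ins, with 4 higher and 4 lower.

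Adhesion genes differed for 18 of 24 measured, 13 higher and 5 lower in the 4-array set (median 0.62, and 0.05 after centring on the spike-ins, with 6 higher and 6 lower). Itga4 and Itgb7 form the integrin that binds mucosal addressin. Itga4 read 2900 and 3061 against 13217, 13050, 14324 and 16082 (2.24, adjusted p = 3e-07), and Itgb7 read 303 and 309 against 1904, 1937, 2874 and 2716 (2.86, adjusted p = 5.7e-07). The hyaluronan receptor gene Cd44 read 2825 and 2879 against 10127, 10220, 11284 and 10353 (1.87). All 3 were higher on each array of the 4-array set. The tetraspanin gene Cd53 was the largest exception, with 12046 and 16366 against 4113, 3899, 7185 and 6940 (-1.40, adjusted p = 7.4e-06), and was higher with doxycycline in both sets.

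Growth factor receptors were higher for 9 of 22 and lower for 1 (median 0.50, and -0.07 after centring on the spike-ins, with 5 higher and 6 lower). Igf1r, the receptor for IGF1, read 1490 and 956 against 4942, 5322, 3766 and 3962 (1.88, adjusted p = 6.3e-07), lower with doxycycline in both sets. Receptors with inhibitory or activating motifs were higher for 9 of 26 and lower for 1 (median 0.42, and -0.15 after centring on the spike-ins, with 7 higher and 5 lower). Of these 26 receptors 38.5% were called, beside 33.0% of all genes. Their median was 0.66 without doxycycline and 0.05 with it. Pirb, which binds MHC class I and inhibits the cell, read 168 and 327 against 1190, 1158, 2072 and 2020 (2.64, adjusted p = 1.7e-07). The exception was Cd274, the PD-1 ligand PD-L1, at -1.32 (adjusted p = 0.00048). Among 26 receptors for lipids, nucleotides and complement, 8 were higher and 1 lower (median 0.19, and -0.38 after centring on the spike-ins, with 7 higher and 3 lower). Their share of calls, 34.6%, was close to the 33.0% of all genes. Gpr183, the oxysterol receptor that positions B cells, read 6.1 and 14.3 against 654, 608, 565 and 692, 24.9-fold higher (4.64, adjusted p = 7.1e-07). The ATP-gated channel gene P2rx4 read 361 and 292 against 2537, 2511, 1922 and 2033 (2.72), and Gpr34, a receptor for lysophosphatidylserine, 729 and 596 against 4451, 5088, 5157 and 4415 (2.82). None of these 3 overlapped between the sets.

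**Figure D5:**
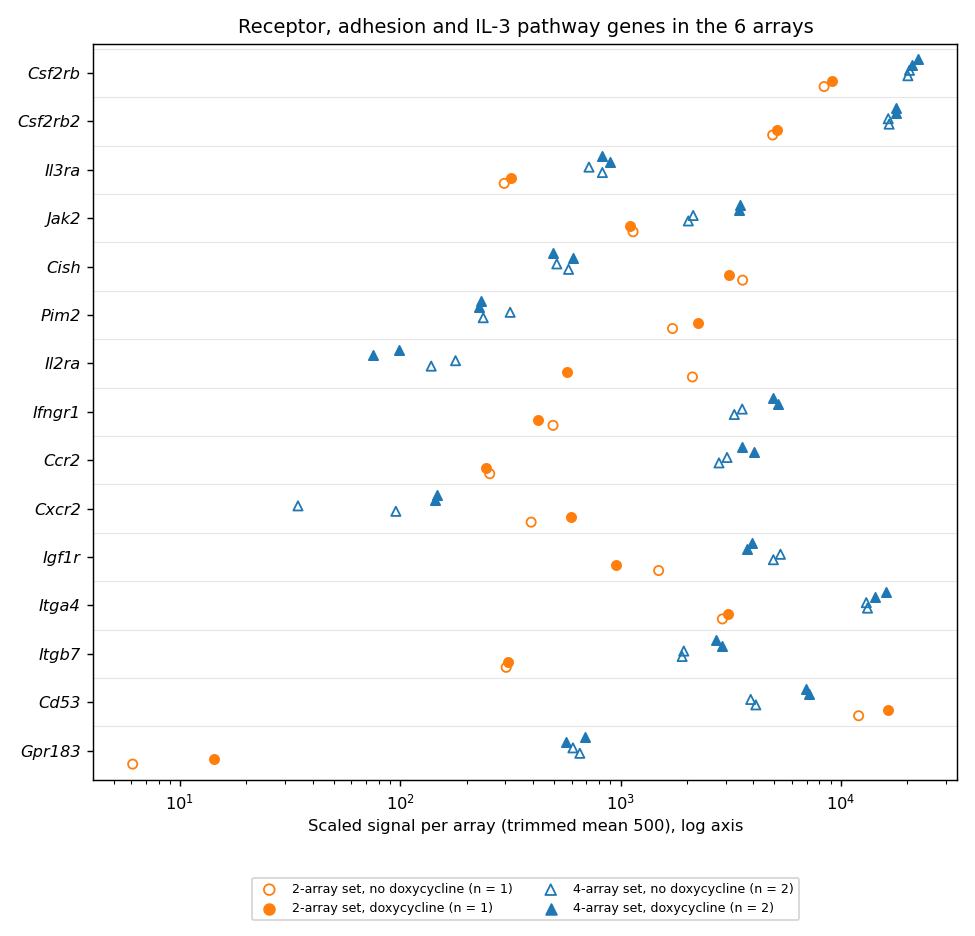
Signal of cytokine, chemokine, growth factor and adhesion receptor genes and of interleukin-3 signalling genes on each of the 6 arrays (log axis), with circles for the 2-array set, triangles for the 4-array set, and filled symbols for doxycycline. The receptor chains Il3ra, Csf2rb and Csf2rb2 are higher in the 4-array set, by 1.26 to 1.77 log2 units, and the STAT5 targets Cish and Pim2 are lower.

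Signalling feedback genes moved both ways. Of 35 immediate early and ERK feedback genes 9 were higher and 11 lower (median 0.13, and -0.44 after centring on the spike-ins, with 4 higher and 15 lower). The ERK phosphatase genes Dusp4 and Dusp6 were lower. Dusp6 read 5276 and 6496 against 2223, 2301, 2624 and 2416 (-1.29, adjusted p = 2.8e-06), and Dusp4 read 991 and 641 against 175, 130, 76.6 and 95.8 (-2.64, adjusted p = 9.3e-06). Klf10, a TGF-beta-induced factor, read 380 and 246 against 1494, 1552, 1727 and 1587 (2.32, adjusted p = 6.1e-06). Fos and Jun were not called, at -0.33 and -0.02. Of 19 NF-kappaB genes 5 were higher and 2 lower (median 0.0048), with 36.8% called beside 33.0% of all genes. On the spike-ins 4 NF-kappaB genes were higher and 10 lower (median -0.56). Of 17 BCL2 family genes 6 were higher and 2 lower (median 0.18), after median centring 3 and 3, and on the spike-ins 2 and 6 (median -0.39). Without the doxycycline array of the 2-array set 4 of the family were called. The largest difference was that of Bcl2l11, which encodes the death-promoting protein BIM and is a FOXO target. It read 329 and 304 against 1411, 1360, 1237 and 1287 (2.01, adjusted p = 4.4e-07), with the sets apart in both states.

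Among the 15 genes with the largest differences in each direction were several outside these lists. Gria3, a glutamate receptor subunit, read 54.5 and 60.6 against 3587, 4861, 5623 and 5371 (6.03, adjusted p = 3.3e-08). Csrp3, a muscle LIM protein, read 108 and 107 against 5275, 4851, 3391 and 3806 (5.12, adjusted p = 5.1e-08), and Slc34a3, a phosphate transporter, 60 and 62.3 against 1313, 1499, 1470 and 1725 (4.29). These 3 transcripts read at most 108 in the 2-array set and were high on every array of the other. Among the genes lower in the 4-array set, Metrnl, a secreted protein, read 1919 and 2114 against 242, 216, 310 and 338 (-2.81, adjusted p = 6.5e-07), and Avil, the actin-binding protein advillin, 1992 and 1930 against 298, 299, 249 and 241 (-2.79, adjusted p = 3.4e-07).

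For a few genes with large differences the 2 arrays of the smaller set also stood far apart from each other. Pik3c2g, a class II PI3 kinase, read 124 and 41.4 against 7009, 7802, 6680 and 6439, a difference of 6.28 (adjusted p = 2.5e-07). Scin, an actin-severing protein, read 3226 and 886 against 30481, 26323, 21519 and 25962, a difference of 3.92 (adjusted p = 1.4e-05). Gzmb read 2693 and 747 against 17703, 15510, 11633 and 13338. Slfn2, a growth-regulating schlafen protein, read 1863 and 510 against 82.4, 47.5, 53.4 and 65.1, a difference of -3.69 (adjusted p = 9e-05). In each of these genes the 2-array signal without doxycycline was the higher. The rule that named Pik3c2g, Scin and Slfn2 required sets that do not overlap in either state. With 1 array per state in that set, a doxycycline response there and the spread between single arrays cannot be told apart.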

How the data were processed

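The authors deposited linear signal intensities per probe set of Affymetrix Mouse Genome 430 2.0-type arrays, which the submitters' processing notes trace to Affymetrix Expression Console. For its algorithm and version, the sources used here give nothing. The deposited values give each of 6 arrays an equal mean once the outer 2% on either side is trimmed, which hides any change in total mRNA. Of 45101 probe sets, 64 were controls, 34945 had 1 gene symbol in the platform annotation, 932 had several and 9160 were not listed. The array sets were read from the codes in the sample titles.

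Log2(signal + 16) was fitted in R 4.3.3 by limma 3.58.1 (lmFit; eBayes, trend on, two-sided), with array set and doxycycline state as terms and 3 residual degrees of freedom. Differences in each state and the interaction came from a fit of the 4 group means with 2 residual degrees of freedom, in which the lone arrays of the 2-array set are assumed to vary like the pairs of the 4-array set. Controls were compared by exact permutation. The number of arrays limits the precision. The fit was tested on simulated data with 200 of 34945 probe sets changed, all drawn from those at or above the 40th percentile of mean signal. It recovered 20.9% of those changed 1.5-fold, 58.2% changed 2-fold and 83.3% changed 4-fold, with 2 false calls among 110. In the data 29.1% of probe sets were called, a far larger share than was changed in the simulation. The Benjamini-Hochberg cut-off depends on that share, so these rates do not describe recovery in the array set comparison.

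The arrays compared, the 44 gene lists (990 entries, 75 of them without a matching symbol) and the tests were chosen with earlier results of these data known, and the lists are described by counts and medians alone. A gene stands for its brightest probe set, and 230 of 9010 genes with several probe sets had calls in both directions. Named were the markers Prg2, Cxcr4, Trib3, S100a8 and Ighm, up to 8 genes of each list by the smallest p, and the 15 genes with the largest called difference in each direction (higher set's mean at least 200, no overlap, no clone symbols), 347 genes in all, of which 303 were called. Members given beyond these were chosen with their values in view. They are those described as not called, with Cdkn1a, Ctps2, Hspa5, Jak2, Kars, Ldha, Mrpl24, Psph and Sars. Promoters are RefSeq sequences of GRCm38.p6. The motif TTCNNNGAA, both E2F motifs and the tRNA synthetase search were added after the data were seen. Planned searches not described above were those for AGATAA, the GATA motif, and TGACGTCA, the CRE. AGATAA occurred in promoters of 2 of 8 eosinophil and 4 of 16 mast cell and basophil genes (25.0% each), and in 11.2% of all promoters. TGACGTCA occurred in those of 2 of 26 immediate early and ERK feedback genes (7.69%) and in 1.79% of all promoters.

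Alternatives were quantile normalization, median centring, pseudocounts of 1 and 64, no trend, a robust prior, leaving out probe sets under the 40th percentile or those ending in _s_at, _x_at or _a_at, no doxycycline term, array weights, 1 probe set or the mean of all per gene, adjusted p under 0.01, each array left out, and, chosen after seeing the data, centring on the spike-ins.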

Additional observations from a re-analysis of the deposited data

Results flagged for a closer look

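In 3 genes the difference between the array sets was called in opposite directions without and with doxycycline. They were picked once the values had been seen, and the interaction with doxycycline state was not called for any of them in limma. Ddx58, the RNA sensor RIG-I, read 1506 against 1168 and 1199 (smaller against larger set) without doxycycline, and 823 against 1253 and 1279 with it. Its difference went from -0.34 to 0.61, a change of 0.96 (interaction in limma, adjusted p = 0.257). Myo18a, an unconventional myosin, read 974 against 761 and 744 without the drug and 680 against 909 and 880 with it, a change of 0.75 from -0.37 to 0.39 (interaction in limma, adjusted p = 0.518). Paqr7, a membrane progestin receptor, read 674 against 500.5 and 497 without the drug and 515 against 806 and 775 with it, a change of 1.02 from -0.42 to 0.60 (interaction in limma, adjusted p = 0.33). In each of these genes both 4-array pairs lie close together and the lone array of the 2-array set lies on opposite sides of them.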

How the results depend on the processing

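Quantile normalization, median centring, pseudocounts of 1 and 64, a robust prior, array weights, no doxycycline term, a 40th-percentile filter and a threshold of 0.01 left both counts of called probe sets within 1.5 times those reported. Other settings moved them. With 1 probe set per gene, where fewer features were tested, 3139 genes were higher and 2953 lower in the 4-array set. Averaging a gene's probe sets gave 2593 and 2371 over the same 18193 genes. What lowered the counts on averaging was not tested. With the _s_at, _x_at and _a_at probe sets (shared sequence) left out, 3069 were lower. After centring on the spike-ins, chosen after seeing the data, 1788 were higher and 12098 lower. Leaving out each array in turn gave 3830 to 5131 higher and 3166 to 4437 lower probe sets, the lowest without the doxycycline array of the 2-array set. Without a mean-variance trend the calls in each state fell to 0 without and 983 with doxycycline, where the fit has 2 residual degrees of freedom. The interaction had 16 calls once dim probe sets were left out.

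Single genes changed sign where another probe set stood for them. Without the shared-sequence probe sets the values were -0.21 for Ighm, 0.29 for Xbp1, 0.14 for Cct3, 0.29 for Pfkl, -0.78 for Rps9, -0.42 for Rps24 and -0.20 for Bmf. With a gene's probe sets averaged they were 0.0052 for Tcf3, -0.13 for Mycn, -0.10 for Rb1, 0.63 for Ccnd3 and 0.21 for Sdha. Of the named genes that were called, 22 change sign after centring on the spike-ins. No paired analysis was possible because the labels give no replicate numbers that the sets share, and each state of the 2-array set has 1 array. In the simulated data, where only brighter probe sets were changed, 1.5-fold changes were recovered least often, at rates that do not describe this comparison.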

Other observations

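The control probe sets for mouse pyruvate carboxylase, an enzyme that feeds the citric acid cycle, also differed. The 3' probe set had log2 levels of 9.47 and 9.44 in the 2-array set and of 11.26, 11.38, 11.12 and 11.39 in the 4-array set. The gap was wider in the others. The 5' probe set read 6.719 and 6.794 against 9.856, 9.798, 9.733 and 9.965. Those labelled MA and MB read from 6.812 to 7.502 in the 2-array set and from 9.945 to 10.385 in the 4-array set. The sets did not overlap. Control probe sets were left out of the fit, so these differences have no adjusted p.

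Several reference genes that are often taken as constant were called between the sets. Of 14 measured, 1 was higher in the 4-array set and 6 lower, with a median of -0.17, and 4 were called without the array of the 2-array set that lacked doxycycline. Actb and Eef1a1 were not called, at -0.14 and -0.01, while the RNA polymerase subunit gene Polr2a differed by -0.79, a call lost when its probe sets were averaged, and B2m by 0.90.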
